A study of Arabidopsis thaliana with 24 samples.

Results

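The genes described here are 8 D-type cyclins of Arabidopsis thaliana and RBR1, the plant retinoblastoma-related protein. The 9 genes were chosen by a list of loci, drawn up with earlier results of these data known, and it leaves out the cyclins with few or no reads in these roots: CYCD1;1 (AT1G70210), CYCD2;1 (AT2G22490), CYCD3;1 (AT4G34160), CYCD3;2 (AT5G67260), CYCD3;3 (AT3G50070), CYCD4;1 (AT5G65420), CYCD4;2 (AT5G10440), CYCD5;1 (AT4G37630) and RBR1 (AT3G12280). They are 9 of 40246 features in the deposited table, of which 26800 had a read, and all 9 were among the 18948 genes with a mean normalized count of at least 5 that entered the tests. Seedlings of the Col-0 accession, 3 days old, were moved to 1 of 4 media. RNA was taken from roots that had been cut close to the tip, with the cut given as 0.2 to 0.5 cm for every library. BL+Kyn held 0.8 nM BL (brassinolide, a brassinosteroid hormone) together with 4 µM Kyn (L-kynurenine, an inhibitor of the TAA1 family of aminotransferases that make auxin), BL held 0.8 nM BL alone, Kyn held 4 µM Kyn alone, and mock held neither. Each medium was sampled at 12, 24 and 48 h with 2 libraries, called biological replicates in the series, so that 12 groups gave 24 libraries and each medium 6. All groups shared the wild-type background, and p-values measure the spread between these libraries.

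D-type cyclins bind the cyclin-dependent kinase CDKA;1 and carry external signals, such as hormones and sugar, into the decision to leave G1. The active kinase phosphorylates RBR1, which otherwise holds E2F transcription factors and keeps genes of DNA replication silent. CDK inhibitors of the KRP and SIM/SMR families oppose the kinase and favour endoreduplication, the replication of DNA without division. In roots, RBR1 is known for restraining the divisions of stem cells and CYCD2;1 and CYCD4;1 for the formation of lateral roots, while the CYCD3 genes are known for cytokinin-driven division in the shoot.

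D-type cyclins touch RBR1 through a short motif near the amino end of the protein, L-x-C-x-E, so its coding sequence is shown for the cyclins that hold it. A search of the translated RefSeq reference (TAIR10.1) found 1 match in each of 6 of the 8 cyclins. The lines below are read from the coding strand, 5′ to 3′, and the capitals mark the 5 codons of the motif.
CYCD1;1, chr1:26440063-26440107, plus strand: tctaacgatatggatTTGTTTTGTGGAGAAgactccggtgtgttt
CYCD2;1, chr2:9555832-9555873, minus strand: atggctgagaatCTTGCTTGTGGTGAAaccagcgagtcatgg
CYCD3;1, chr4:16357951-16357995, plus strand: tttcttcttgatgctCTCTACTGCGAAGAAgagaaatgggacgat
CYCD3;2, chr5:26836358-26836402, plus strand: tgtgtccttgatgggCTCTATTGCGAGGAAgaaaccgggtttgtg
CYCD3;3, chr3:18566583-18566627, minus strand: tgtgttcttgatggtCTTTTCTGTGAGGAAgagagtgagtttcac
CYCD4;1, chr5:26143694-26143738, minus strand: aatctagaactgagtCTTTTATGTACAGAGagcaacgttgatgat
No match to these letters was found in CYCD4;2 (298 residues) or CYCD5;1 (323 residues). The motif began between residue 5, in the CYCD2 protein, and residue 22. The cyclin whose transcript was higher in BL+Kyn, the first of these lines, has the motif, and the cyclin whose transcript was lower has no match. The other cyclins with the motif had log2 differences from mock between -0.26 and -0.10, and CYCD4;2, without a match, had -0.08. None of these was called, and a link between motif and transcript level was not tested.

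The 8 cyclin proteins were far apart in sequence except for 2 pairs. The 2 CYCD4 proteins were identical in 68.8% of alignment columns, and CYCD3;2 and CYCD3;3 in 67.9%, while the other pairs lay between 24.7% and 46.6%. The 2 cyclins whose transcripts moved in BL+Kyn shared 27.5%.

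Promoters were read as the 250 bases before each RefSeq gene start, because RBR1 is itself known as a target of E2F factors. The E2F motifs TTTCCCGC, TTTGGCGC, TTTGCCGC and TTTCGCGC, searched on both strands, were found in 2 of the 9 promoters, against 387 of 27443 promoters (1.4%) in the whole annotation. The windows below run 5′ to 3′ on the strand of the gene, with the motif in capitals.
RBR1, chr3:3919407-3919456, minus strand: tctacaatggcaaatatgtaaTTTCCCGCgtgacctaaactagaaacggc
CYCD3;3, chr3:18566910-18566959, minus strand: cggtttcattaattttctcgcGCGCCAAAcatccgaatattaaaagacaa
The RBR1 motif lay 76 to 69 bases before the start. The motif of the cyclin, TTTGGCGC on the opposite strand, lay 104 to 97 bases before its start. The auxin response elements TGTCTC and TGTCGG, present in 14.7% of promoters, were found in CYCD3;2 and RBR1. The BZR1 elements CGTGTG and CGTGCG, bound by a brassinosteroid response factor and present in 6.7% of promoters, were found in RBR1. The 2 cyclins that moved in BL+Kyn had none of these letters in the window.

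Depth and tissue set how finely these genes could be read. The libraries held between 6.32 M and 31.37 M reads (M, mega-reads). The 9 genes had between 13 reads in a library, for CYCD4;2, and 1868, for CYCD3;3. Transcripts of 18 photosynthesis genes summed to 102929 normalized counts in BL 12 h replicate 2 and to 119341 in Kyn 12 h replicate 2, against 2042.5 to 8613.1 in the other 22 libraries, so results were also computed without those 2. Root markers were present in every library, with a sum of 5652.8 to 9028.7 normalized counts in BL+Kyn and 6068.0 to 8403.6 in mock. Most of this sum came from CASP1 of the endodermis and the hair cell gene EXPA7 (means of 4922 and 1631). It says little of meristem genes such as PLT2 (mean 93.2). In bulk root RNA, fewer cells of a type and less RNA per cell cannot be told apart. CEL-Seq2 reads the 3′ end of a transcript, and RefSeq gene ends lay 1786 bases beyond the deposited end of CYCD3;2, 178 beyond that of CYCD1;1 and at most 63 beyond those of the other members. The strand counted is not given in the sources used here, and some members lie close to other genes. CYCD3;1, with a mean of 47.4 normalized counts, lay 346 bases from AT4G34150, which had 534. RBR1 lay 83 bases from AT3G12270, with a mean of 123, and 369 from AT3G12290, with 1210. CYCD1;1 lay 68 bases from AT1G70209, which had 0 reads.

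**Figure D1:**
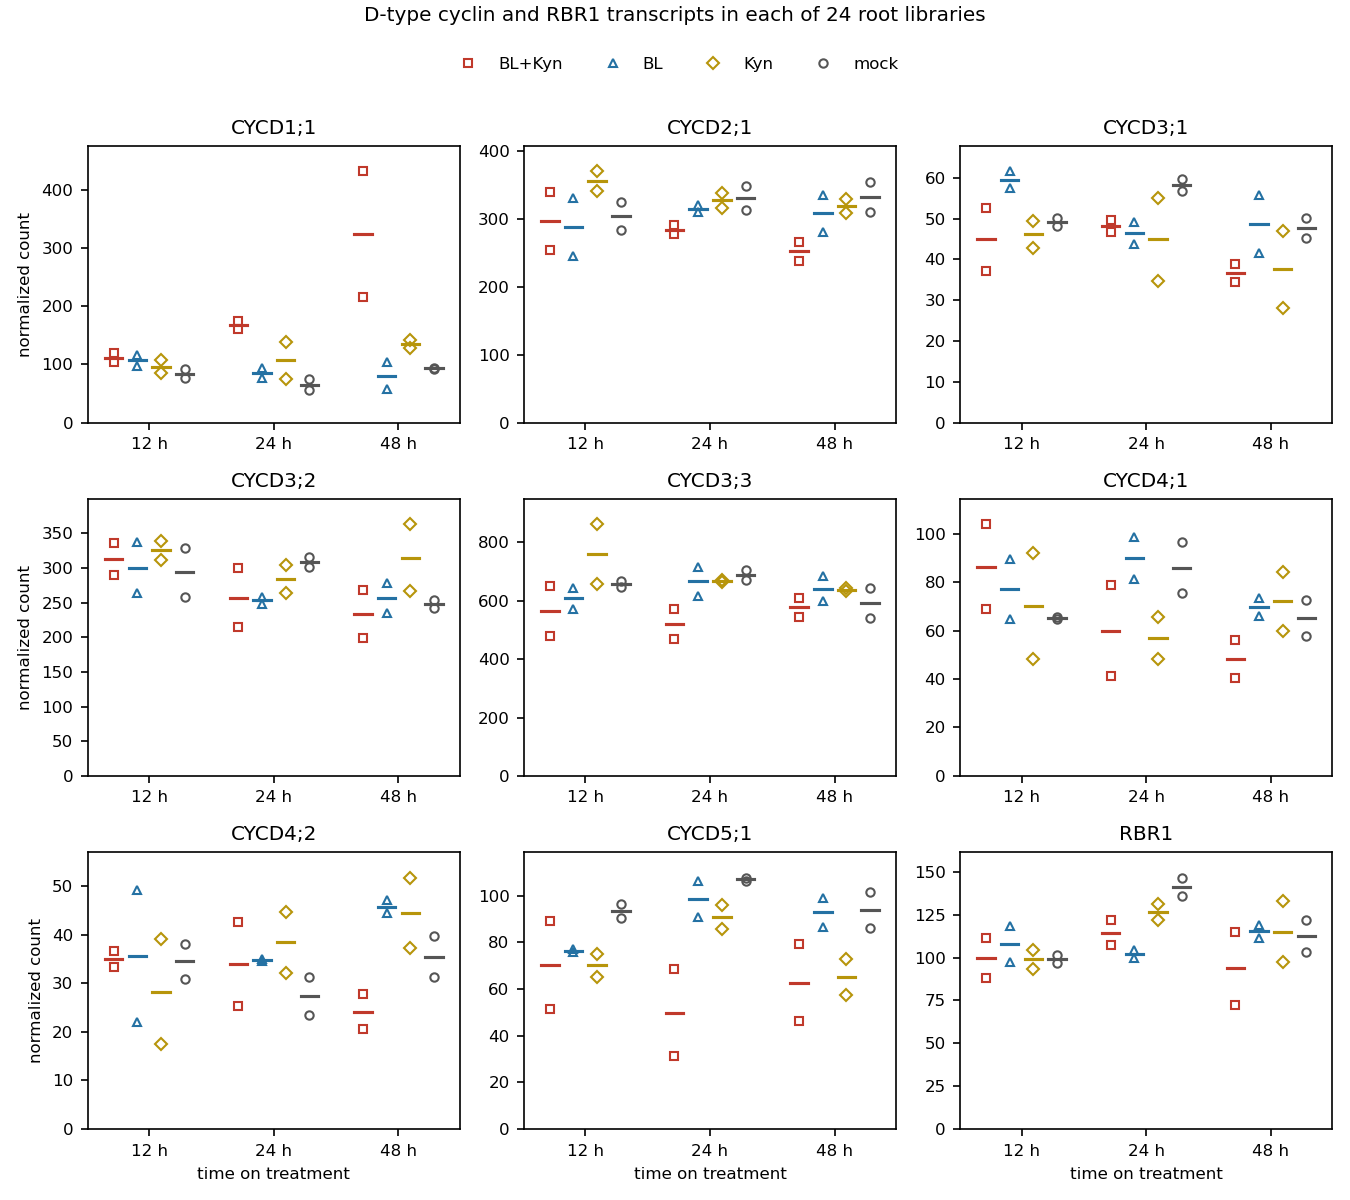
Normalized counts (vertical axes, linear, from 0) of the 9 genes in each library at 12, 24 and 48 h (horizontal axes), with single libraries as open symbols and means of 2 as short bars. CYCD1;1 stands apart in BL+Kyn at 24 and 48 h, with 161 and 174, then 432 and 216 normalized counts, and the panel of CYCD5;1 has all 6 BL+Kyn libraries below both mock libraries of the same time.

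BL and Kyn together moved 2 of the 9 genes in opposite directions: CYCD1;1 rose to 2.23 times mock and CYCD5;1 fell to 0.593 times mock, averaged over the 3 times. The other 7 genes, RBR1 included, did not pass the test, and their log2 differences lay between -0.26 and -0.08. In the limma fit over 18948 genes this comparison called 6887 (36.3%), so 2 of 9 is no higher a share than that of all genes. The median log2 difference was -0.21 over the 9 genes and 0.00 over all genes tested.

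CYCD1;1, a cyclin known from early divisions in germinating seeds, had the widest range of the 9. At 12 h it had 104 and 119 normalized counts in BL+Kyn, against 77.1 and 91.5 in mock. At 24 h it had 161 and 174 in BL+Kyn, against 74.8 and 55.6 in mock. At 48 h it had 432 and 216 in BL+Kyn, against 92.5 and 93.9 in mock. Every BL+Kyn library lay above every mock library, and the pair at 48 h lay further from each other than the pairs at the earlier times. On the log2(normalized count + 1) scale, used for all differences here, the time-averaged difference was 1.16 (SE 0.19, 95% interval 0.75 to 1.56, limma adjusted p = 9.58e-05). It ran from 0.99 to 1.32 when single libraries were left out, and it passed the test each time.

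The difference in CYCD1;1 was small at 12 h and larger at the later times. The log2 difference from mock was 0.40 at 12 h (SE 0.32, limma adjusted p = 0.567), 1.36 at 24 h (adjusted p = 0.00714) and 1.70 at 48 h (adjusted p = 0.000982). At 12 h limma called 952 genes (5.02%) and 0 of the 9, with 0 also at an unadjusted p under 0.05 and 0 by edgeR. At 24 h it called 3457 genes (18.2%) and 2 of the 9, this cyclin and CYCD5;1, and at 48 h 4435 genes (23.4%) and 1 of the 9, this cyclin. Its 24 h call ended without the second library of mock at that time (adjusted p = 0.0822) or without the second of BL+Kyn (adjusted p = 0.0687).

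Within BL+Kyn, CYCD1;1 was 1.45 higher on the log2 scale at 48 h than at 12 h (SE 0.32, limma adjusted p = 0.00755). It was the sole member called, among 1621 genes (8.55%). The call ended without the first library of BL+Kyn at 48 h (0.95, adjusted p = 0.0925) and without the first at 12 h (adjusted p = 0.0665). A test of whether the response to BL+Kyn, relative to mock, changed over the 3 times did not pass for this gene (moderated F test in limma, unadjusted p = 0.0269, adjusted p = 0.296). That test called 219 genes (1.16%) and 0 of the 9, with 1 of the 9 at an unadjusted p under 0.05 and 0 by edgeR. Without the second library of BL+Kyn at 48 h the adjusted p of the same gene was 0.0402. For BL and for Kyn alone the same test in limma called 0 genes (0%), as did edgeR, and 0 of the 9 had an unadjusted p under 0.05.

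In the authors' deposited table CYCD1;1 had log2 fold changes of 0.30, 1.02 and 1.43 in BL+Kyn at 12, 24 and 48 h, with adjusted p-values of 0.693, 0.00184 and 2.395e-06. The same table gave CYCD5;1 log2 fold changes of -0.30, -0.80 and -0.45 at these times, with adjusted p-values of 0.679, 0.0175 and 0.244. No other of the 9 genes had an adjusted p under 0.05 in the authors' deposited table for BL+Kyn.

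CYCD5;1, a cyclin linked to endoreduplication in Arabidopsis leaves, went the other way. It had 88.9 and 51.3 normalized counts in BL+Kyn at 12 h, against 96.4 and 90.2 in mock. After 24 h it had 68.5 and 31.2 in BL+Kyn, against 108 and 106 in mock. After 48 h it had 46.4 and 79.1 in BL+Kyn, against 101 and 86.0 in mock. Each BL+Kyn library lay below both mock libraries of its time, while over all times the 2 ranges overlapped slightly. The mock pairs lay close together and the BL+Kyn pairs apart, by 2.2 times at 24 h.

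The time-averaged log2 difference of this cyclin was -0.76 (SE 0.18, 95% interval -1.16 to -0.36, limma adjusted p = 0.00337). It lay between -0.94 and -0.57 and passed the test when any single library was left out. By time its log2 differences were -0.46 at 12 h (limma adjusted p = 0.492), -1.19 at 24 h (adjusted p = 0.0142) and -0.61 at 48 h (adjusted p = 0.175). The 24 h call ended without the second library of BL+Kyn at that time (-0.64, adjusted p = 0.280), or without the first (0.0774) or the second (0.0756) of mock. Without the second library of BL+Kyn at 48 h, the 48 h difference was -0.99 (adjusted p = 0.0447).

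**Figure D2:**
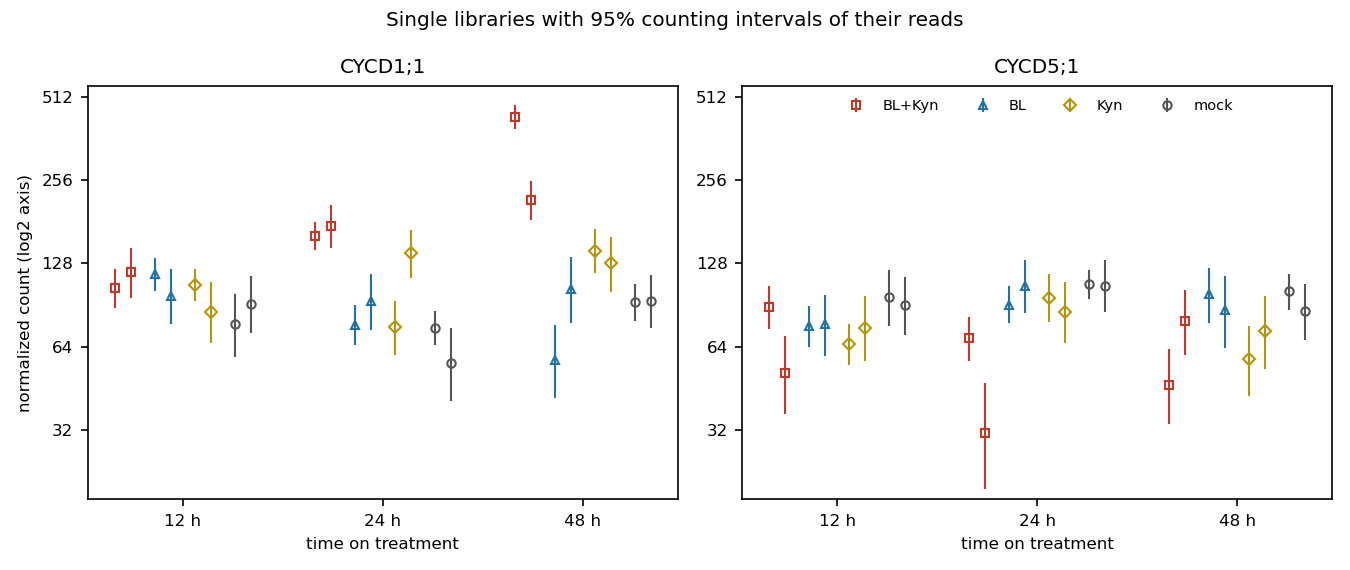
Normalized counts of CYCD1;1 (left) and CYCD5;1 (right) in single libraries on a log2 axis, by time, with vertical lines for the 95% Poisson intervals of the reads, which cover counting error only. The left panel reaches 432 and 216 in BL+Kyn at 48 h, and the right panel has its lowest value, 31.2, in BL+Kyn at 24 h.

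RBR1, the target of the cyclin-dependent kinase, differed little between media. At 12 h it had 88.2 and 112 normalized counts in BL+Kyn, against 102 and 96.6 in mock. At 24 h it had 107 and 122 in BL+Kyn, against 147 and 136 in mock. At 48 h it had 72.3 and 115 in BL+Kyn, against 122 and 103 in mock. BL+Kyn lay below mock at 24 h in both libraries, and the ranges overlapped at 12 and 48 h. The time-averaged log2 difference was -0.20 (SE 0.13, 95% interval -0.47 to 0.08, limma adjusted p = 0.236). Without the second library of BL+Kyn at 48 h it was -0.31, with an adjusted p of 0.0429, and at 48 h alone it was then -0.62 (adjusted p = 0.0482).

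CYCD2;1 and CYCD3;3 had lower medians in BL+Kyn than in mock, and neither passed the test. The CYCD2 transcript had 239, 272 and 340 normalized counts as the lowest, median and highest of 6 BL+Kyn libraries, against 285, 319 and 354 in mock. Its log2 difference was -0.22 (SE 0.09, limma adjusted p = 0.0778), and 5 of 6 BL+Kyn libraries lay below both mock libraries of their time. CYCD3;3 had 468, 558 and 651 in BL+Kyn, against 540, 657 and 706 in mock. Its log2 difference was -0.22 (SE 0.09, limma adjusted p = 0.0625), with 3 of 6 libraries below both mock libraries of their time. The ranges of BL+Kyn and mock overlapped for both genes.

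The remaining CYCD3 and CYCD4 genes gave intervals that span no difference. CYCD3;1, a cytokinin-responsive cyclin, had 34.6, 42.7 and 52.6 normalized counts in BL+Kyn (lowest, median and highest of 6), against 45.3, 50.1 and 59.7 in mock. The ranges overlapped, and its log2 difference was -0.26 (95% interval -0.62 to 0.09), with 5 of 6 BL+Kyn libraries below both mock libraries of their time. CYCD3;2 had 200, 279 and 336 in BL+Kyn, against 242, 280 and 329 in mock, and its log2 difference was -0.10 (-0.34 to 0.15). BL+Kyn spanned the whole range of mock for this gene.

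Of the CYCD4 genes, CYCD4;1 had 40.2, 62.5 and 104 normalized counts in BL+Kyn, against 57.9, 69.0 and 96.5 in mock, and its log2 difference was -0.21 (95% interval -0.64 to 0.21). CYCD4;2, known from stomatal formation in the hypocotyl, had 20.5, 30.5 and 42.5 in BL+Kyn, against 23.5, 31.3 and 39.6 in mock, and its log2 difference was -0.08 (-0.59 to 0.42). CYCD4;2 had 13 to 90 reads a library, and its interval was the widest of the 9. In both CYCD4 genes the BL+Kyn libraries reached above and below all mock libraries.

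Within BL+Kyn, CYCD4;1 had 68.9 and 104 normalized counts at 12 h, 78.6 and 41.1 at 24 h, and 56.2 and 40.2 at 48 h. Both libraries at 48 h lay below both at 12 h, with a log2 difference of -0.82 (SE 0.34). The unadjusted p was 0.0271, and the difference did not pass adjustment in limma (adjusted p = 0.155). CYCD3;2 had a log2 difference of -0.43 in the same comparison (unadjusted p = 0.0413, limma adjusted p = 0.198). Between 48 and 12 h limma called 116 genes in BL (0.612%), 71 in Kyn (0.375%) and 70 in mock (0.369%). None of these 3 comparisons called any of the 9 genes in limma or in edgeR, and 0 of the 9 had an unadjusted p under 0.05.

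**Figure D3:**
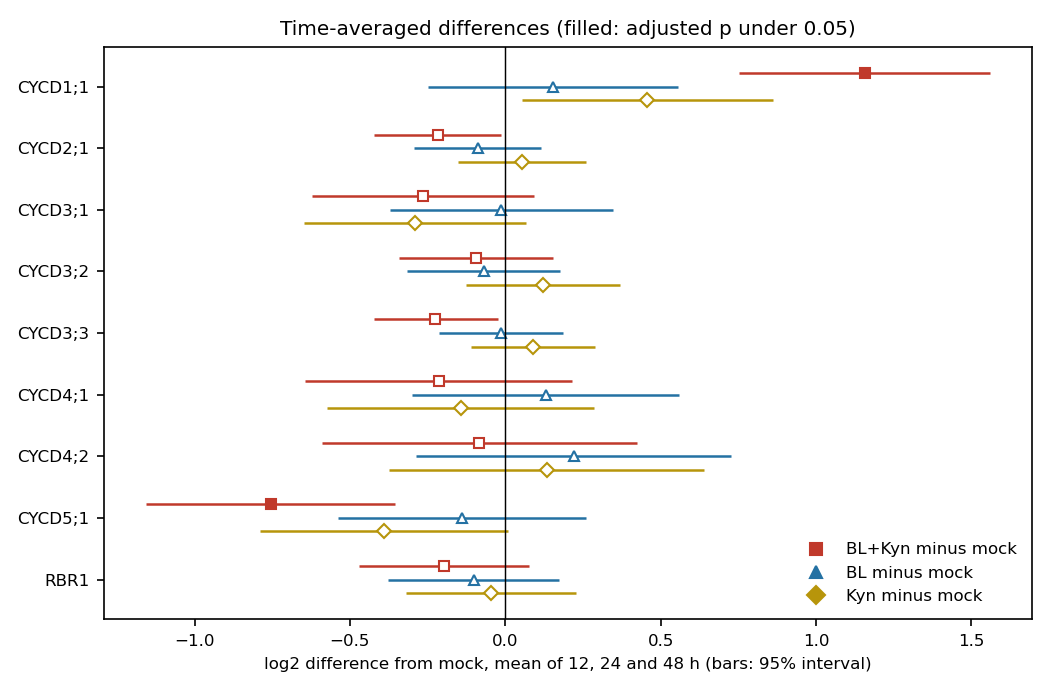
Fitted log2 differences from mock of the 9 genes (rows), averaged over 12, 24 and 48 h, for BL+Kyn, BL and Kyn, with 95% intervals as bars and filled symbols where the adjusted p was under 0.05. The 2 filled symbols are those of BL+Kyn at 1.16 and -0.76, and the intervals of BL all span 0.

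BL alone gave no call among the 9 genes. The time-averaged log2 differences from mock lay between -0.14 and 0.22. The median was -0.01 over the 9 genes and 0.01 over all genes. CYCD1;1 had 57.1, 95.7 and 117 normalized counts in BL (lowest, median and highest of 6), against 55.6, 84.3 and 93.9 in mock, and its log2 difference was 0.15 (95% interval -0.25 to 0.56). Of its 6 BL libraries 5 lay above both mock libraries of their time and 1 below both. CYCD4;2 had 22.0, 39.7 and 49.1 in BL, against 23.5, 31.3 and 39.6 in mock, with the same split of 5 and 1 and a log2 difference of 0.22 (95% interval -0.29 to 0.73). CYCD5;1 had 4 of 6 BL libraries below both mock libraries of their time and a log2 difference of -0.14 (95% interval -0.54 to 0.26). Limma called 357 genes (1.88%) and 0 of the 9, with 0 at an unadjusted p under 0.05 and 0 by edgeR. At single times limma called 18 (0.095%), 20 (0.106%) and 41 (0.216%) genes at 12, 24 and 48 h and 0 of the 9 each time, as did edgeR.

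RBR1 at 24 h had 104 and 99.9 normalized counts in BL, against 147 and 136 in mock. Both BL libraries lay below both mock libraries, and the limma test gave an unadjusted p of 0.0468 and an adjusted p of 0.649. It was the sole member with an unadjusted p under 0.05 at any single time in BL.

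Kyn alone gave the 2 cyclins that moved in BL+Kyn the same signs, with smaller values that did not pass adjustment. CYCD1;1 had 75.2, 118 and 142 normalized counts in Kyn (lowest, median and highest of 6), against 55.6, 84.3 and 93.9 in mock. Its log2 difference was 0.46 (SE 0.19, 95% interval 0.05 to 0.86, unadjusted p = 0.0234, limma adjusted p = 0.223), and 5 of 6 Kyn libraries lay above both mock libraries of their time. CYCD5;1 had 57.6, 73.9 and 96.1 in Kyn, against 86.0, 98.9 and 108 in mock. All 6 Kyn libraries lay below both mock libraries of their time, although the ranges over all times overlapped. The log2 difference was -0.39 (SE 0.18, unadjusted p = 0.0475, limma adjusted p = 0.336). The Kyn and BL+Kyn values share the same mock libraries.

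Limma called 929 genes in Kyn against mock (4.9%) and 0 of the 9, with 2 of the 9 at an unadjusted p under 0.05 and 0 by edgeR. At 12, 24 and 48 h it called 243 (1.28%), 165 (0.871%) and 222 (1.17%) genes and 0 of the 9, with 0 at an unadjusted p under 0.05 and 0 by edgeR. The other 7 genes had log2 differences from mock between -0.29 and 0.13. RBR1 had 93.3 and 104 normalized counts in Kyn at 12 h, against 102 and 96.6 in mock. At 24 h it had 131 and 122 in Kyn, against 147 and 136 in mock, and at 48 h 97.5 and 133 in Kyn, against 122 and 103 in mock. Kyn lay below mock in both libraries at 24 h, and the pairs overlapped at the other times, with a time-averaged log2 difference of -0.05 (95% interval -0.32 to 0.23).

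Set directly against each single compound, BL+Kyn differed in CYCD1;1 from both. In BL+Kyn against BL limma called 5247 genes (27.7%) and 2 of the 9, no higher a share than that of all genes. This cyclin was higher by 1.00 on the log2 scale (SE 0.19, limma adjusted p = 0.000591), with 5 of 6 BL+Kyn libraries above both BL libraries of their time. The pairs overlapped at 12 h, at 104 and 119 in BL+Kyn against 117 and 97.8 in BL. The cyclin that fell, CYCD5;1, had a log2 difference of -0.62 (SE 0.18, limma adjusted p = 0.0173), with 5 of 6 BL+Kyn libraries below both BL libraries of their time. This second call ended without the second library of BL+Kyn at 12 h (adjusted p = 0.0733), the second at 24 h (0.0726) or the first at 48 h (0.0645). With 12 and 24 h alone neither cyclin was called (adjusted p = 0.0670 and 0.0624).

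In BL+Kyn against Kyn limma called 5744 genes (30.3%) and 3 of the 9, a share near that of all genes. CYCD1;1 had a log2 difference of 0.70 (SE 0.19, limma adjusted p = 0.00816), with 5 of 6 BL+Kyn libraries above both Kyn libraries of their time and the pairs overlapping at 12 h. With 12 and 24 h alone its difference was 0.46 (adjusted p = 0.0984).

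The other 2, CYCD3;3 and CYCD2;1, fell relative to Kyn. The CYCD3 gene had 651 and 481 normalized counts in BL+Kyn at 12 h, against 659 and 862 in Kyn. At 24 h it had 571 and 468 in BL+Kyn, against 663 and 671 in Kyn. At 48 h it had 545 and 610 in BL+Kyn, against 635 and 643 in Kyn. Every BL+Kyn library lay below both Kyn libraries of its time, closest at 12 h, and the log2 difference was -0.31 (SE 0.09, limma adjusted p = 0.0144). The CYCD2 gene had 340 and 255 normalized counts in BL+Kyn at 12 h, against 342 and 371 in Kyn. After 24 h it had 292 and 278 in BL+Kyn, against 317 and 338 in Kyn. After 48 h it had 267 and 239 in BL+Kyn, against 309 and 330 in Kyn. Again every BL+Kyn library lay below both Kyn libraries of its time, and the log2 difference was -0.27 (SE 0.09, limma adjusted p = 0.0357).

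Kyn 12 h replicate 2, a library with high photosynthesis transcripts, held the highest value of each of these 2 genes, 862 and 371. Without both such libraries, which left 1 library of Kyn at 12 h, fewer of all genes were called. The log2 difference was then -0.25 for the CYCD3 gene and -0.25 for the CYCD2 gene, and neither call held. The first of these calls also ended without the second library of BL+Kyn at 12 h (adjusted p = 0.0635), of BL+Kyn at 24 h (0.0557) or of Kyn at 12 h (0.0615). The second ended in 11 of the 35 alternatives, with adjusted p from 0.0512 to 0.163.

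BL against Kyn separated none of these genes. Limma called 1476 genes (7.79%) and 0 of the 9, with 0 at an unadjusted p under 0.05 and 0 by edgeR. The interaction asked whether BL+Kyn departed from the sum of the single responses. Limma called 755 genes (3.98%) and 0 of the 9, with 1 at an unadjusted p under 0.05, CYCD3;3, and 0 by edgeR. Its interaction was -0.30 on the log2 scale (SE 0.13, adjusted p = 0.181). CYCD1;1 had an interaction of 0.55 (SE 0.26, 95% interval -0.03 to 1.12, limma adjusted p = 0.234), and of 0.71 (adjusted p = 0.0485) without the second library of BL+Kyn at 48 h.

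Ordered by group mean, CYCD1;1 was highest in BL+Kyn at 48 h (324 ± 152 normalized counts, SD, n = 2), then BL+Kyn at 24 h (167 ± 9.66), Kyn at 48 h (135 ± 10.1) and BL+Kyn at 12 h (112 ± 10.7). The ranges of these 4 groups did not overlap between neighbours, while all 8 neighbouring pairs below them did, down to mock at 24 h (65.2 ± 13.6). CYCD5;1 was lowest in BL+Kyn at 24 h (49.9 ± 26.4) and highest in mock at 24 h (107 ± 0.95), and 8 of its 11 neighbouring pairs overlapped. The highest group mean was 4.97 times the lowest for the first of these genes, 2.15 times for the second and 1.39 to 1.9 times for the other 7. RBR1 was lowest in BL+Kyn at 48 h (93.7 ± 30.2) and highest in mock at 24 h (141 ± 7.49), with 9 of 11 pairs overlapping. The other 6 genes had 0 or 1 separate pair of 11. No such count is given here for all genes, and whether these counts are unusual was not tested.

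Across the 12 group means CYCD1;1 ran against the other members, with Pearson values from -0.78 to -0.34. Pairs among the other members ran from -0.10 to 0.72. Of these, only CYCD4;2 with CYCD3;1 (-0.10) and with CYCD3;3 (-0.08) lay below 0. Pearson correlations over all pairs ran from -0.78 (Spearman -0.91), for the 2 cyclins that moved in BL+Kyn, to 0.72 (Spearman 0.71), for the 2 that were lower in BL+Kyn than in Kyn. Those calls come from the same groups, so these values add nothing to them. The CYCD4 pair, close in sequence, had 0.23, and the closer pair of CYCD3 genes 0.48. RBR1 had -0.49 with CYCD1;1 and values between 0.17 and 0.44 with the other cyclins. These are descriptions over group means that share media and times.

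Among 16094 other genes, those most like CYCD1;1 over the 12 group means were AT1G07200, also known as SMXL6, a repressor in strigolactone signalling (Pearson 0.964, Spearman 0.916), and AT1G15740 (0.955 and 0.685). CYCD5;1 was most like AT2G15270 (0.931 and 0.951) and AT1G24240 (0.923 and 0.832). RBR1 was most like RSW10, a ribose 5-phosphate isomerase (0.918 and 0.867), and AT4G36660 (0.897 and 0.741). For the other 6 members the closest gene had a Pearson value from 0.892, for AT5G10900 with the first CYCD4 gene, to 0.953, for ATMND1 with CYCD3;3.

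The other D-type cyclins were near or at the floor. CYCD6;1, which acts in the formative division of root ground tissue, had 13 reads over 6 BL+Kyn libraries, 3 in BL, 3 in Kyn and 12 in mock, and was too low to test. CYCD7;1, a cyclin of the stomatal lineage, had 0 reads in all 24 libraries.

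Of 8 tested kinase partners and activators of the D-type cyclins, 0 rose and 2 fell in BL+Kyn. Over all genes tested limma called 18.7% higher and 17.6% lower in this comparison, so 2 of 8 is near that background. CYCH;1 and CDKD;3, parts of the kinase that activates CDKs, had log2 differences from mock of -0.52 (SE 0.12, limma adjusted p = 0.00317) and -0.43 (SE 0.15, adjusted p = 0.0362). CDKA;1, the kinase itself, had 0.01 (SE 0.09, adjusted p = 0.953). The list's median was -0.08. Leaving out single libraries gave 1 to 3 calls, with 3 without the first library of mock at 12 h. The count was 1 when any 1 of 8 libraries was left out: the second of mock at 12 h, both of mock at 24 h and at 48 h, the second of BL+Kyn at 12 h, and the first at 24 h and at 48 h.

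Of 9 CDK inhibitors tested, 3 rose and 2 fell in BL+Kyn, against 18.7% higher and 17.6% lower over all genes, with a median log2 difference of -0.05. KRP1 rose by 1.13 (SE 0.26, limma adjusted p = 0.00246), KRP6 by 0.60 (adjusted p = 0.00238) and KRP5 by 0.39 (adjusted p = 0.0298). SMR1, also known as LGO and a promoter of endoreduplication, had a log2 difference of -1.13 (SE 0.11, adjusted p = 4.30e-07), and KRP3 one of -0.69 (adjusted p = 0.0122). With 12 and 24 h alone 1 rose, and without the second library of BL+Kyn at 24 h 1 fell. In Kyn alone, where 4.9% of all genes were called, SMR1 fell (-0.58, limma adjusted p = 0.00260) and KRP5 rose (0.51, adjusted p = 0.0335). The count of rises in Kyn was 0 when any 1 of 7 libraries was left out: both of Kyn at 12 h, the second at 24 h, the first at 48 h, the first of mock at 12 h and at 24 h, and the second at 48 h. In BL alone limma and edgeR called 0 of the 9 inhibitors, with 2 at an unadjusted p under 0.05, KRP1 (0.75) and SMR1 (-0.24).

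Of the E2F and DP factors, a list with atypical factors in it, 0 of 7 rose and 3 fell in BL+Kyn. Over all genes 17.6% were called lower and 36.3% in either direction. The median log2 difference was -0.30, against 0.00 over all genes. E2FA, an activating E2F, fell by 0.53 (SE 0.19, limma adjusted p = 0.0355), the dimer partner DPA by 0.41 (SE 0.12, adjusted p = 0.0140), and the atypical factor DEL3 by 0.30 (SE 0.12, adjusted p = 0.0486). With 12 and 24 h alone 0 were called, and 1 to 3 when single libraries were left out. The count was 1 without the second library of BL+Kyn at 12 h or at 24 h, the first at 48 h, or the first of mock at 24 h or at 48 h. Of 6 partners in RBR1 complexes (the DREAM complex) limma called 0, with a median of 0.04, and edgeR also called 0. In limma 1 gene, ALY3, had an unadjusted p under 0.05. Without the first library of mock at 48 h limma called 1. In BL and in Kyn alone limma and edgeR called 0 of the E2F and DP factors and 0 of these partners, with ALY3 in Kyn (0.42) the sole gene of both lists at an unadjusted p under 0.05.

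**Figure D4:**
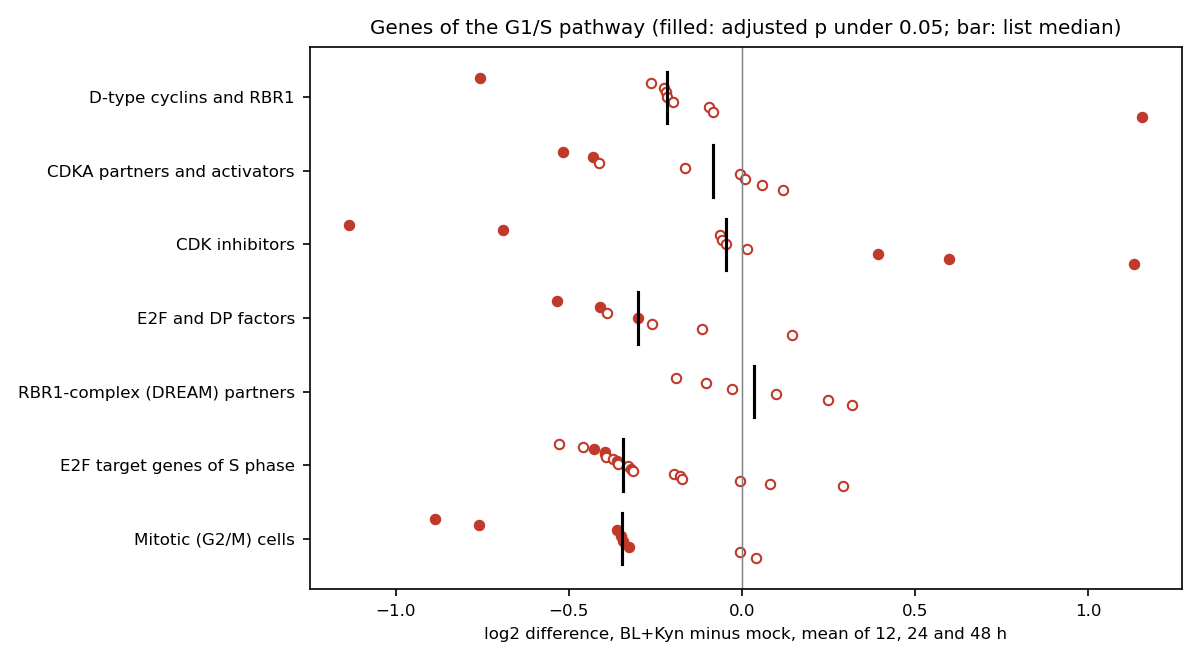
Fitted log2 differences, BL+Kyn minus mock averaged over the 3 times, for the 9 genes and 6 lists of the pathway (rows), with a circle for each gene, filled where the adjusted p was under 0.05, and black bars for medians. The medians of the E2F and DP factors (-0.30), the S-phase genes (-0.34) and the mitotic genes (-0.34) lie below 0, and the CDK inhibitors spread to both sides.

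Of 18 tested S-phase genes that E2F factors drive, 0 rose and 4 fell in BL+Kyn, a share near the 17.6% lower over all genes. The median log2 difference was -0.34, against 0.00 over all genes. TSO2, a ribonucleotide reductase subunit, fell by 0.39 (SE 0.06, limma adjusted p = 9.95e-05), and the replication clamp genes PCNA1 and PCNA2 by 0.43 (adjusted p = 0.000136) and 0.36 (adjusted p = 0.00955). The count of falls ran from 3 to 11 when single libraries were left out. It was 11 without the second library of BL+Kyn at 48 h, 8 without the first at 12 h and 7 without the first of mock at 12 h. In BL and in Kyn alone limma and edgeR called 0 of the 18, with 0 in BL and 1 in Kyn, CDC45 (0.37), at an unadjusted p under 0.05.

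Markers of dividing cells were read in the same way. Of 8 mitotic genes 0 rose and 6 fell in BL+Kyn, against 17.6% lower over all genes, with a median log2 difference of -0.34. They included CYCB1;1 (-0.89, SE 0.18, limma adjusted p = 0.000962), CDKB1;2 (-0.76, adjusted p = 0.00285) and the cytokinesis gene KNOLLE (-0.36, adjusted p = 0.00376). Their summed level was 2496.9 to 4429.6 normalized counts over the 6 BL+Kyn libraries, against 3017.0 to 3850.0 in mock. Most of this sum came from CDKB2;1 and KNOLLE (means of 2121 and 730). It says little of CYCB1;1 and CDKB1;2 (means of 62.8 and 66.6). At 12 h both BL+Kyn sums (2710.8 and 2496.9) lay below both of mock (3422.9 and 3377.6). The pairs overlapped at 24 h and at 48 h (3488.7 and 4429.6 in BL+Kyn, 3777.0 and 3255.2 in mock). The part of dividing cells in the values of the 9 genes was not tested. The count of falls was 3 when any 1 of 8 libraries was left out: both of mock at 12 h and at 24 h, the first of mock at 48 h, the second of BL+Kyn at 12 h and at 24 h, and the first at 48 h.

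Root genes changed too in BL+Kyn, with 1 of 7 higher and 4 lower, against 18.7% and 17.6% of all genes. CASP1 of the endodermis had a log2 difference of 0.70 (limma adjusted p = 6.26e-05), the hair cell gene EXPA7 one of -2.21 (adjusted p = 3.79e-08) and the meristem factor PLT2 one of -1.49 (adjusted p = 7.43e-07). The photosynthesis list had 0 of 17 called in limma and in edgeR and 0 at an unadjusted p under 0.05, and 3 higher without the 2 libraries in which it was high.

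Of 6 tested regulators that act upstream of the cyclins or E2F genes, 2 rose and 1 fell in BL+Kyn, against 36.3% called in either direction over all genes, with a median log2 difference of -0.01. ARR1, a cytokinin response factor, rose by 0.36 (SE 0.13, limma adjusted p = 0.0336), and LBD18, an auxin-induced factor of lateral root formation, by 0.65 (SE 0.22, adjusted p = 0.0250). SHR, which with SCR directs a formative division of the ground tissue, fell by 0.21 (SE 0.07, adjusted p = 0.0270). The count of rises was 0 without the second library of mock at 12, 24 or 48 h or the first of BL+Kyn at 12, 24 or 48 h. The count of falls was 0 without the second of mock at 12 or 24 h, the first of mock at 48 h, the second of BL+Kyn at 12 h or the first at 24 or 48 h. In BL and in Kyn alone limma and edgeR called 0 of the 6, with 1 each at an unadjusted p under 0.05, LBD18 in BL (0.55) and SCR in Kyn (0.24). Without the first library of mock at 12 h limma called 1 in BL.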

How the data were processed

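Root RNA of 24 samples was read by CEL-Seq2, a 3′-end method. The authors deposited normalized counts per gene and library (a signal on a linear scale), and a second table with the authors' log2 fold changes and adjusted p-values of each treatment against mock. Per the submitters' processing notes, the tools were FastQC 0.11.5, cutadapt 1.10, Trim Galore, HTSeq 0.6.1, TopHat2 2.1.0 and DESeq2 1.18.1, with the TAIR10 build. Collapse of molecular barcodes is not given in the sources used here. Each library's values were multiples of 1 unit, and 99.93 to 100% of them came out as whole reads, within 0.1, once divided by it.

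Genes with a mean of at least 5 (18948) were fitted as log2(normalized count + 1) in limma 3.58.1 (limma-trend, 12 group means, R 4.3.3), with Benjamini-Hochberg adjustment over all genes of a comparison. "Called", "rose" and "fell" mean an adjusted p under 0.05. edgeR 4.0.16 on the recovered reads was an alternative, as were other scalings, pseudocounts, filters, a replicate block and left-out libraries. The code was tested on simulated data. Sequences came from RefSeq, whose TAIR10.1 genes overlapped the deposited coordinates in 26808 of 26815 cases. Named genes were the 9 members, all called genes of the first 4 pathway lists, up to 3 called genes by smallest p of the others, and the closest genes by Pearson correlation. Members and lists were chosen with earlier results of these data known. Replicate numbers were not treated as pairs.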

Additional observations from a re-analysis of the deposited data

How the results depend on the processing

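The alternatives were 3 other scalings or tests, 2 pseudocounts, 2 filters, library weights, a replicate block, the 12 and 24 h libraries alone, the fit without both libraries with high photosynthesis transcripts, and each library left out. The time-averaged calls of CYCD1;1 and CYCD5;1 in BL+Kyn against mock held in all 35. Counts of members called under the alternatives are given here without the share of all genes called in the same setting. Shifts in those counts are therefore not results about the members. Of 7101 member results, 29 lost and 15 gained a call, and no called value changed sign. With 12 and 24 h alone, BL+Kyn against BL called 0 members (CYCD1;1 adjusted p = 0.0670, CYCD5;1 0.0624) and BL+Kyn against Kyn called 1 (CYCD3;3, with CYCD1;1 at 0.0984). Without both photosynthesis-rich libraries BL+Kyn against Kyn called 1. Library weights left 0 called in BL+Kyn at 48 h against 12 h (CYCD1;1 adjusted p = 0.0661). With single libraries left out, members called ran from 2 to 4 in BL+Kyn against mock, 1 to 3 against BL, 1 to 3 against Kyn, 0 to 1 in the interaction, 0 to 1 in BL+Kyn at 48 h against 12 h, 0 to 2 at 24 h, 1 to 3 at 48 h and 0 to 1 in the test of change with time, and the cause was not tested. A replicate block left the count in BL+Kyn against mock at 2 and changed no member's call. Same-numbered libraries correlated between -0.121 and 0.53 in their deviations from the group means, with 9 of 66 group pairs over 0.1. Of 24 libraries 18 correlated best with their own number, and the 2 libraries of a group always count alike here. Replicate 1 was mostly the deeper library, as in mock at 24 h (31.37 M against 9.66 M reads), though not in mock at 12 h (9.30 M against 9.47 M). Whether the numbers mark a shared batch was not tested. Scaling moved the median of all genes by at most 0.03 on the log2 scale. CYCD4;2 had 13 to 90 reads a library. The interval of its difference from mock in BL+Kyn ran from -0.59 to 0.42 on the log2 scale. Differences inside this interval were compatible with the data. The part of read depth in the width of the interval was not tested.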
